A study of Mus musculus with 9 samples.

Results

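The cytosolic ribosomal protein genes were described in NMuMG cells, an immortalized epithelial line from the mouse mammary gland. The genes were chosen by symbol, taking names made of Rpl or Rps, a number and a letter suffix, together with Rplp0, Rplp1, Rplp2 and Rpsa, and leaving out the S6 kinases and symbols that end in -ps. This gave 92 of the 52459 gene symbols in the files, with 484 of the 131100 transcripts. The study compared 3 RNA-Seq libraries of mock cells, which carry the empty vector, with 3 libraries of cells overexpressing the lncRNA EPR (BC030870) and 3 of cells overexpressing EPRSTOPE, a point mutant of EPR that cannot make the EPR-encoded peptide. The question behind the comparisons is which changes follow the RNA and which depend on the peptide.

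All 9 libraries came from cells grown in serum and insulin that had been transfected stably with vectors built on pBICEP, whose insert is driven by the CMV promoter, and selected as pools in G418. The mock cells went through the same selection, and the labels name no further treatment. The libraries are named here by their numbers, 203 to 205 for mock, 206 to 208 for EPR and 209 to 211 for EPRSTOPE. The methods call the 3 libraries of a group biological triplicates without saying whether they came from separate pools, so p-values measure the spread between these libraries. A group made from pools of transfectants may also differ from mock in ways unrelated to the insert, which cannot be told apart here.

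Each ribosome of the cytoplasm joins a small subunit, whose proteins carry the prefix Rps, to a large subunit, whose proteins carry the prefix Rpl, around the ribosomal RNAs. The proteins are needed in equal amounts, and in growing cells their mRNAs are among the most abundant. Most of these mRNAs begin with a run of pyrimidines, the terminal oligopyrimidine tract, through which mTOR signalling controls their translation. Their abundance has also seeded the genome with many processed copies, which are mRNAs reverse transcribed and inserted elsewhere, and reads of a gene and of a near-identical copy are hard to tell apart.

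Library totals ran from 5972457 to 11876435 estimated counts per library, so that 3 counts correspond to 0.253 to 0.502 in every 1000000 before TMM scaling. CPM is the number of counts in every 1000000 after TMM scaling. EPR itself was at 0 to 0.163 CPM in mock, 23.7 to 27.0 CPM in EPR and 3.80 to 4.74 CPM in EPRSTOPE libraries. Of the epithelial markers, *Krt8* and *Krt18* were high in every library, whereas *Cdh1* was at 0.311 to 1.16 CPM in mock, 542 to 569 CPM in EPR and 381 to 427 CPM in EPRSTOPE libraries. The 10 epithelial markers summed to 3699 to 4165 CPM in mock, 9509 to 10616 CPM in EPR and 10711 to 11049 CPM in EPRSTOPE, and the mesenchymal ones to 3914 to 4096, 2133 to 2361 and 3860 to 4215 CPM. Their part in the ribosomal protein values was not tested, and in bulk RNA fewer cells of a type and less RNA per cell cannot be told apart. The markers of immune cells summed to at most 3.83 CPM in any library, and those of endothelial and fat cells to at most 16.8 CPM.

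Of the 92 genes, 86 had at least 1 CPM in at least 3 libraries and were tested. By the prefix of their symbols they held 50 of the large subunit with the P-stalk, 35 of the small subunit, and *Rps19bp1*. The last matches the naming rule but encodes a binding partner of Rps19 and no subunit. The untested ones were *Rpl10l*, *Rpl39l* and *Rps4l*, with no counts in any library, *Rpl3l* with 1 count, *Rpl6l* below 1 CPM throughout, and *Rps27rt*, which had counts only in mock 203 and 204. Of all 92, 6 are annotated as processed pseudogenes, among them *Rpl37rt*, *Rps12l1*, *Rps3a2* and *Rps3a3*, which passed the filter. Those that passed are counted with the subunit of their prefix, as is *Rpl7l1*, a protein of ribosome assembly.

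The levels per transcript length, as TPM averaged over the 9 libraries, placed *Rpl41*, the shortest of the ribosomal proteins, first with 2343 TPM. It was followed by the stalk protein *Rplp1* (2019 TPM), the laminin receptor *Rpsa* (1713 TPM), *Rpl13a* (1656 TPM) and *Rps2* (1589 TPM). This order pools groups and was not the order of each group. TPM are scaled by effective transcript lengths that differed between libraries, so those of short mRNAs such as *Rpl41* are not comparable between libraries or groups. In mock libraries *Rpl41* had 2870 ± 442 TPM, *Rps2* 2632 ± 277 TPM and *Rplp1* 2364 ± 122 TPM (SD, n = 3 each), and the intervals of 1 SD around neighbouring means overlapped. In EPR libraries *Rplp1* (2051 ± 306 TPM) and *Rpl41* (2038 ± 148 TPM) were first, and *Rps2* had 993 ± 113 TPM. In EPRSTOPE libraries *Rpl41* (2119 ± 414 TPM) was followed by *Rplp1* (1641 ± 194 TPM), and *Rps2* had 1143 ± 168 TPM. At the lower end were *Rps19bp1* (41.6 TPM), *Rpl7l1* (49.8 TPM), a protein of ribosome assembly, *Rpl5* (86.6 TPM), *Rpl12* (105 TPM) and *Rpl27* (107 TPM). The low values of *Rpl5*, *Rpl12* and *Rpl27* hold for the gene alone. In EPR libraries 10.5% of the family's counts lay on *Rpl5*, 12.7% on *Rpl12* and 14.8% on *Rpl27*. Most of the others lay on the copy *Gm15500* for *Rpl5* and on *Gm10275* for *Rpl12*.

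How reads fell between genes and copies mattered for several of the largest differences, so the sequences come first. Copies were transcripts at least 90% identical to a member over at least 50% of the copy's length, which gave 1116 copies in 82 of the 86 families formed by the members. The copies took 21.5 to 33.8 counts for every 100 counts on members. The windows show places where 4 genes and the copy named differ. Each is 75 bases long, the read length in the labels, 5′ to 3′ in Gencode M21 transcripts on GRCm38, with the differing bases in capitals.
Rpl35a: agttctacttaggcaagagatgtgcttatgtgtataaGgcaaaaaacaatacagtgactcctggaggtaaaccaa
Rpl35a-ps2: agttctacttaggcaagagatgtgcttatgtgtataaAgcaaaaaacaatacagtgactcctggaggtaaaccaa
Rpl3: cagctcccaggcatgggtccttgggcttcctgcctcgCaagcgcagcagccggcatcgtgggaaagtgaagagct
Rpl3-ps1: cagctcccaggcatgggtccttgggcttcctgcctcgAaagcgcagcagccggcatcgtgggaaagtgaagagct
Rpl26: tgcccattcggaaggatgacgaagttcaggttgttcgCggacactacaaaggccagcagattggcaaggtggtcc
Gm15772: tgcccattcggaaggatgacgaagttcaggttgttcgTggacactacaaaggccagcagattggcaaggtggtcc
Rplp0: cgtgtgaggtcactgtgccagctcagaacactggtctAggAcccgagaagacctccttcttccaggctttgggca
Gm8730: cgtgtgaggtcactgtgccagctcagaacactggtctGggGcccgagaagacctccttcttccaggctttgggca

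*Rpl35a* and *Rpl35a-ps2* (chromosome 1 from 181241988 to 181242320) differ at 1 of the 333 bases they share, G156A counted from the first base of the copy. *Rpl35a-ps3*, *Rpl35a-ps4* and *Rpl35a-ps6* are identical to *Rpl35a-ps2* over all 333 bases. *Rpl3* and *Rpl3-ps1* (chromosome X from 13202571 to 13203780) differ at 2 of 1210 bases, *Rpl26* and *Gm15772* (chromosome 5 from 3236431 to 3236868) at 2 of 438, and *Rplp0* and *Gm8730* (chromosome 8 from 102864845 to 102865798) at 12 of 954. *Rps27* and its retrocopy *Rps27rt* are identical over 341 aligned bases, *Rpl15* and *Rpl15-ps3* over 615, and *Rpl10* and *Rpl10-ps3* over 740, so a read from within those stretches carries nothing that separates the pair.

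*Rps27*, a zinc-finger protein of the small subunit, had 26.7, 18.3 and 331 CPM in mock 203, 204 and 205. It had 319, 303 and 290 CPM in EPR and 275, 324 and 279 CPM in EPRSTOPE libraries. Its copy *Rps27rt* had 250 and 314 CPM in mock 203 and 204, and 0 in the other 7 libraries. With all copies summed, the family of *Rps27* lay between 275 and 330 CPM in every library, and the log2 fold change of the family was -0.02 for EPR and -0.09 for EPRSTOPE against mock, where the gene alone gave 1.25 (standard error 0.76) and 1.20 (standard error 0.76). *Rpl10* went the same way in EPR libraries, with 98.3, 294 and 760 CPM on the gene and 749, 544 and 0 CPM on *Rpl10-ps3*. The family of *Rpl10* stayed between 765 and 907 CPM over the 9 libraries.

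For *Rpl35a*, *Rpl3*, *Rpl26* and *Rplp0* the split between gene and copy was alike within each group and differed between mock and both overexpressing groups. *Rpl35a* had 160, 184 and 171 CPM in mock against 299, 314 and 289 CPM in EPR and 286, 313 and 274 CPM in EPRSTOPE libraries. The copies *Rpl35a-ps2*, *Rpl35a-ps3*, *Rpl35a-ps4* and *Gm10243* each had 24.9, 34.5 and 37.03 CPM in mock and at most 0.280 CPM elsewhere. With the copies summed, the *Rpl35a* family ran from 283 to 354 CPM in mock, from 293 to 319 CPM in EPR and from 275 to 314 CPM in EPRSTOPE, and the groups overlapped. *Gm8730*, the copy of *Rplp0*, had 389, 396 and 406 CPM in mock, 85.3, 88.4 and 70.3 CPM in EPR and 67.3, 67.1 and 75.6 CPM in EPRSTOPE libraries, with no overlap between mock and the others. Whether the copies are transcribed or receive reads of their gene was not tested.

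**Figure D1:**
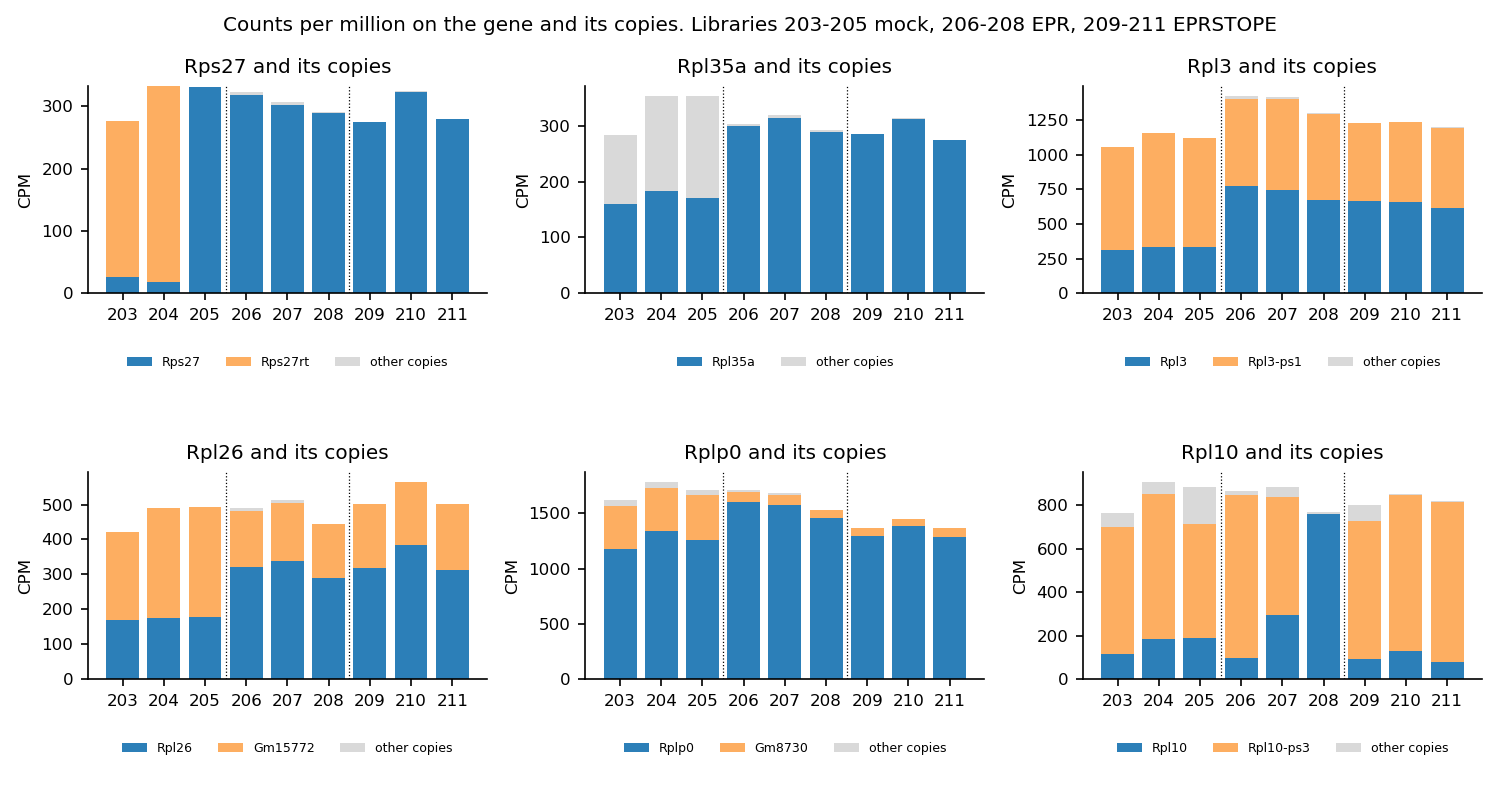
CPM on 6 ribosomal protein genes and on their near-identical copies in each library, stacked, with mock 203 to 205, EPR 206 to 208 and EPRSTOPE 209 to 211 separated by dotted lines. In mock 203 and 204 most counts of the Rps27 pair lie on Rps27rt, and the copies of Rpl35a have counts in mock libraries, while the height of each stack varies less than its parts.

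Summing copies with their gene also brought the libraries of a group closer. The median coefficient of variation within EPR libraries was 7.26% over the 86 tested genes alone and 5.67% over the 82 tested families, and within EPRSTOPE libraries 9.24% and 4.85%. Alone, 4, 7 and 14 genes varied by more than 25% within mock, EPR and EPRSTOPE libraries, and no family did. In 45 of the families with counts the members held over 90% of the counts in every group, and in 15 they held under 50% in every group.

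EPR was first compared with mock cells over the genes alone. A gene was called where edgeR's test gave an adjusted p below 0.01 and the log2 fold change was beyond 0.5. By this rule 15.2% of all 15370 genes tested were called higher and 12.9% lower. Of the 86 ribosomal protein genes 7 were called higher and 4 lower, 12.8% in all against 28.1% of all genes. Their median log2 fold change was -0.05, against -0.01 over all genes, and 54 of the 86 lay within 0.25 of 0. At an adjusted p under 0.01 with any fold change, 11 were higher and 9 lower, beside 19.4%, 18.0% and, in either direction, 37.4% of all genes.

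The genes called higher in EPR were *Rpl3* (log2 fold change 1.16), *Rpl26* (0.86), *Rpl35a* (0.81), *Rps24* (0.75), *Rps19bp1* (0.75), *Rpl37rt* (0.53) and *Rps27l* (0.53). The genes called lower were *Rps2* (-1.13), *Rpl36a* (-0.72), *Rpl23* (-0.60) and *Rps29* (-0.54). Of the 50 tested genes with the prefix of the large subunit 4 were higher, the pseudogene *Rpl37rt* among them, and 2 lower. Of the 35 of the small subunit 2 were higher and 2 lower. The largest value that missed the call was that of *Rps27* (1.25, adjusted p = 0.20), described above with its copy.

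EPRSTOPE was compared with the same mock libraries, so the comparisons share their controls. Among all genes 15.6% were called higher and 12.4% lower, 28.0% in all, and among the 86 ribosomal protein genes 8 and 4. At any fold change 10 were higher and 7 lower, beside 20.1%, 16.8% and together 36.9% of all genes. The higher ones were *Rpl3* (0.998), *Rps19bp1* (0.96), *Rpl26* (0.96), *Rpl37* (0.93), *Rps24* (0.89), *Rpl35a* (0.76), *Rpl37rt* (0.55) and *Rps27l* (0.55), and the lower ones *Rps2* (-0.996), *Rps16* (-0.79), *Rps29* (-0.68) and *Rpsa* (-0.51). Of the large subunit with the stalk 5 were higher, *Rpl37rt* again among them, and none lower. By edgeR, 16 of these 50 had an unadjusted p under 0.05, beside 53.9% of all genes. Of the small subunit 2 were higher and 4 lower. A difference between the subunits was not tested in either comparison. The median was -0.04, as it was over all genes (-0.04).

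**Figure D2:**
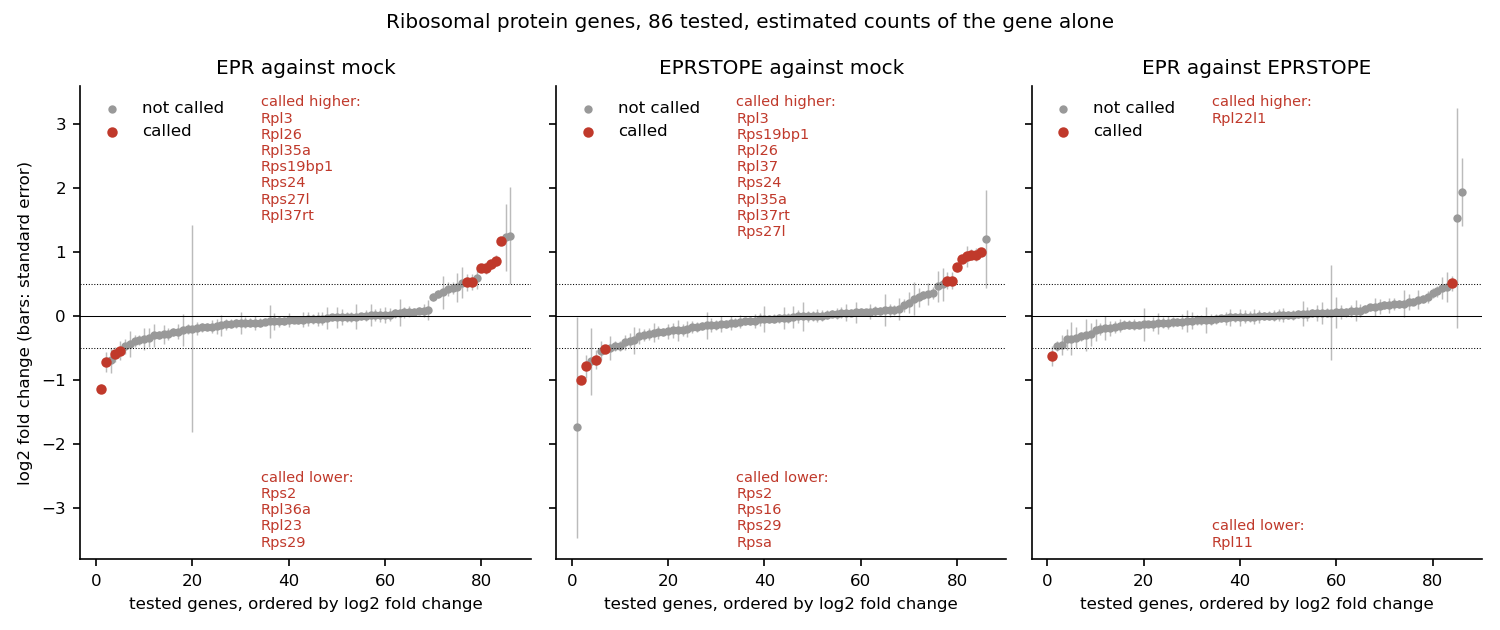
Log2 fold changes of the 86 tested ribosomal protein genes in 3 comparisons, each ordered from lowest to highest, with bars for the standard error and dotted lines at the call limit of 0.5. Most genes lie near 0, called genes are red and named in each panel, and the widest bars belong to Rps27, Rpl10 and Rps12l1.

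With copies summed, 4 families were called higher and 3 lower in EPR against mock, beside 16.1% and 12.3% of all features in that fit, 28.4% in all. In EPRSTOPE against mock 4 and 4 families were called, beside 16.2% and 12.3%, 28.5% in all. The same 7 families were called in both, *Rps24*, *Rpl37*, *Rps27l*, *Rps19bp1*, *Rps2*, *Rpl15* and *Rps29*, and *Rpsa* was called in EPRSTOPE. Both comparisons use the same mock libraries, and the share of all features called in both was not counted. The calls of *Rpl3*, *Rpl26*, *Rpl35a*, *Rpl36a*, *Rpl23* and *Rps16* ended in this fit, with family log2 fold changes of 0.32, 0.05, -0.12, -0.20 and -0.47 for the first 5 in EPR and -0.32 for *Rps16* in EPRSTOPE. In EPR *Rpl3* (adjusted p = 0.00012, edgeR) and *Rpl23* (2.7e-05) missed only the fold change limit. The adjusted p was 0.60 for *Rpl26*, 0.28 for *Rpl35a* and 0.038 for *Rpl36a* in EPR, and 0.015 for *Rps16* in EPRSTOPE. On protein-coding transcripts the gene *Rpl23* gave -0.23 in EPR (adjusted p = 0.33). The values of the called families follow.

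*Rps24* (ENSMUSG00000025290.17, chromosome 14 from 24487125 to 24496959) encodes a small-subunit protein needed for maturation of the 18S ribosomal RNA. The gene had 392.1, 425 and 403 CPM in mock, 697, 692 and 665 CPM in EPR and 764, 762 and 729 CPM in EPRSTOPE libraries. Every EPR and EPRSTOPE library lay above every mock library. The log2 fold changes were 0.75 (standard error 0.05, adjusted p = 1.4e-07) and 0.89 (standard error 0.05, adjusted p = 2.9e-08), and 0.78 and 0.90 for the family. The 10 tested protein-coding genes on either side of *Rps24* gave medians of 0.84 in EPR and 0.91 in EPRSTOPE, near or above the values of *Rps24* itself.

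*Rpl37* (ENSMUSG00000041841.7, chromosome 15), a zinc-binding protein of the large subunit, and its retrocopy *Rpl37rt* together had 241, 284 and 269 CPM in mock, 412, 402 and 379 CPM in EPR and 417, 496 and 438 CPM in EPRSTOPE libraries. The groups did not overlap with mock. The log2 fold changes of the family were 0.59 and 0.77, beside medians of 0.70 and 0.85 over the 17 neighbours tested. Alone, the call of *Rpl37rt* ended without mock 203 (0.42 and 0.44) or mock 204 (0.57 and 0.59), without EPR 207 (0.50) or 208 (0.53), and without EPRSTOPE 209 (0.46) or 211 (0.48). Its calls also ended with library totals in place of TMM (0.45 and 0.43), and in EPRSTOPE with counts scaled from TPM and length (0.77, adjusted p = 0.046, edgeR). *Rps19bp1* (ENSMUSG00000051518.7, chromosome 15) had 19.0, 20.6 and 16.4 CPM in mock, 32.1, 31.6 and 30.3 CPM in EPR and 35.7, 35.8 and 36.8 CPM in EPRSTOPE libraries, also without overlap. It rose by 0.75 and 0.96 on the log2 scale, beside neighbour medians of 0.46 and 0.57.

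Chromosome 15 held 5 tested members, and all 5 lay above mock in both comparisons. Besides *Rpl37* and *Rps19bp1* these were *Rpl3*, which binds the peptidyl transferase centre, *Rpl8* and *Rpl30*. *Rpl8* had 723, 834 and 801 CPM in mock, 1027, 1043 and 922 CPM in EPR and 962, 1003 and 987 CPM in EPRSTOPE libraries, with log2 fold changes of 0.34 and 0.32. *Rpl30* had log2 fold changes of 0.43 and 0.36, and *Rpl3* as a family 0.32 and 0.15. The median over the 520 other genes tested on chromosome 15 was 0.49 in EPR and 0.51 in EPRSTOPE, and on chromosome 14, with 487 other genes, 0.49 and 0.59. The part of these chromosome-wide values in the members' differences was not tested.

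**Figure D3:**
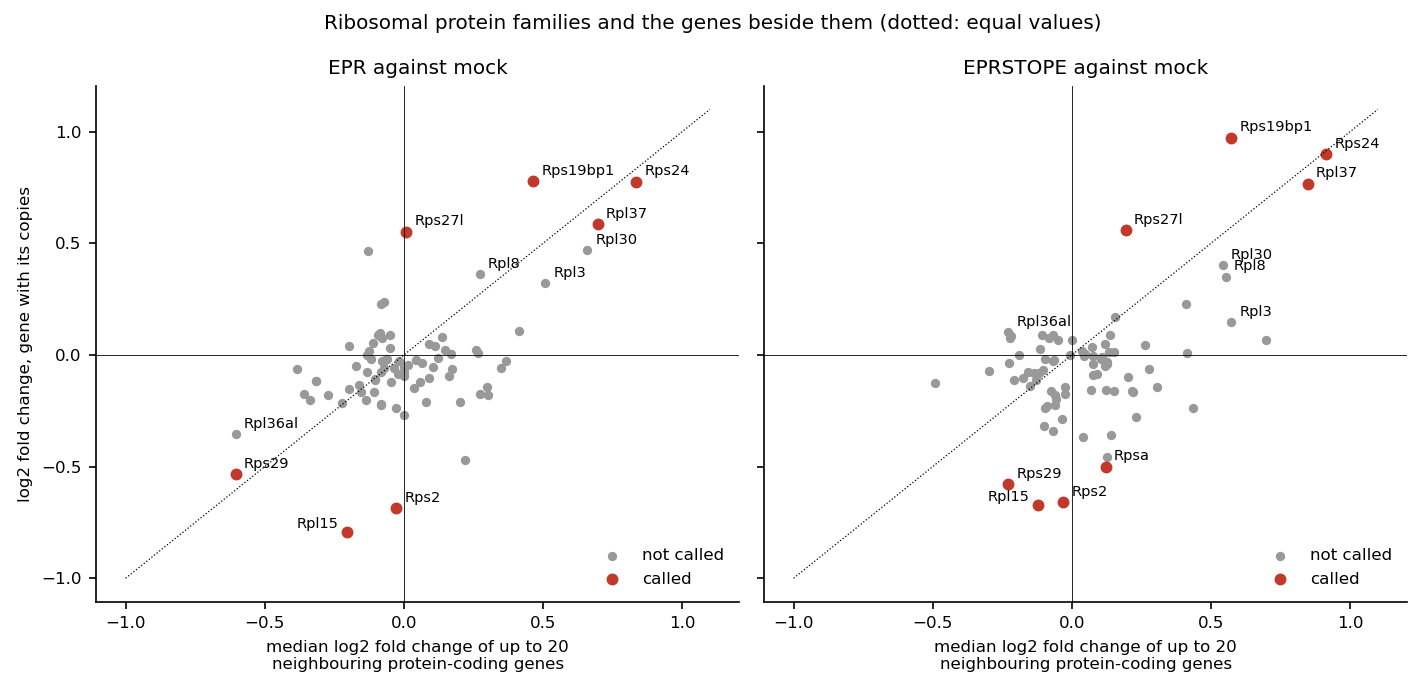
Log2 fold change of each ribosomal protein family, genes with their copies, against the median log2 fold change of up to 20 protein-coding genes beside it, for EPR and for EPRSTOPE against mock. Red points are called families and the dotted line marks equal values, near which Rps24 and Rpl37 lie, while Rps27l, Rps2 and Rpl15 lie away from it.

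*Rps27l*, a paralog of *Rps27* and a known target of p53, had 66.2, 106 and 91.8 CPM in mock, 132, 124 and 126 CPM in EPR and 131, 138 and 118 CPM in EPRSTOPE libraries. All overexpressing libraries lay above mock, and mock 203 was lowest. Its log2 fold changes were 0.53 (standard error 0.13, adjusted p = 0.0051) and 0.55 (standard error 0.13, adjusted p = 0.0042). Its neighbours had medians of 0.01 and 0.19. Without mock 203 the values were 0.36 and 0.38, below the call limit. Its calls also ended, at log2 fold changes of 0.50 to 0.57, without mock 205 in both comparisons, without any 1 of the EPR libraries, and without EPRSTOPE 209 or 210. With library totals in place of TMM (0.45 in EPR and 0.43 in EPRSTOPE) neither call held. The same was so with counts scaled from TPM and length (0.51 and 0.48) and on protein-coding transcripts (0.48 and 0.48).

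*Rps2* (ENSMUSG00000044533.15, chromosome 17 from 24718116 to 24721929), which lies at the entry of the mRNA channel, had the lowest log2 fold change among the genes called in each comparison against mock. It had 1849, 2138 and 2069 CPM in mock, 1009.8, 895 and 856 CPM in EPR and 1067, 1010.1 and 961 CPM in EPRSTOPE libraries. Its log2 fold changes were -1.13 (standard error 0.07, adjusted p = 1.1e-07) and -0.996 (standard error 0.07, adjusted p = 3e-07). With its 51 copies, the family fell by 0.69 and 0.66 on the log2 scale, and the gene held 62.1% of the family's counts in EPR and 65.9% in EPRSTOPE against 83.1% in mock. The genes beside *Rps2* had medians of -0.03 and -0.03.

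*Rpl15*, a large-subunit protein on chromosome 14, was not called as a gene, with 608, 640 and 663 CPM in mock, 375, 394 and 414 CPM in EPR and 395, 643 and 311 CPM in EPRSTOPE libraries. EPRSTOPE 210 lay among the mock libraries, and its copy *Rpl15-ps3* was at 0 there and at 218 and 320 CPM in EPRSTOPE 209 and 211. As a family *Rpl15* had 970, 1033 and 1029 CPM in mock, 592, 608 and 551 CPM in EPR and 614, 652 and 635 CPM in EPRSTOPE libraries. The family fell by 0.79 (standard error 0.05, adjusted p = 3.3e-08) and 0.67 (standard error 0.05, adjusted p = 1.4e-07) on the log2 scale, unlike the median of chromosome 14. Its nearest neighbours had medians of -0.20 and -0.12.

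*Rps29*, a small zinc-binding protein of the small subunit on chromosome 12, had 265, 393 and 382 CPM in mock, 250, 235 and 231 CPM in EPR and 176, 247 and 225 CPM in EPRSTOPE libraries. Mock 203 lay close to EPR 206, and neither group overlapped with mock. The log2 fold changes were -0.54 and -0.68, beside neighbour medians of -0.60 and -0.23. The call of *Rps29* in EPR ended without mock 204 (-0.45) or 205 (-0.47), without any 1 EPR library (-0.57 to -0.50) or without EPRSTOPE 211. It also ended with TMM computed without ribosomal protein genes (-0.51, adjusted p = 0.011, edgeR) and with counts scaled from TPM and length (-0.64, adjusted p = 0.0275). *Rpsa* had 1699, 1977 and 1936 CPM in mock, 1598, 1653 and 1472 CPM in EPR and 1331, 1337 and 1262 CPM in EPRSTOPE libraries, and it fell by 0.51 in EPRSTOPE on the log2 scale. Its call ended without mock 204 (-0.48), mock 205 (-0.50) or EPRSTOPE 211 (-0.49). Between 92.8% and 96.7% of its counts lay on transcripts not annotated as protein-coding, and over its protein-coding transcripts alone the value in EPRSTOPE was 0.020.

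**Figure D4:**
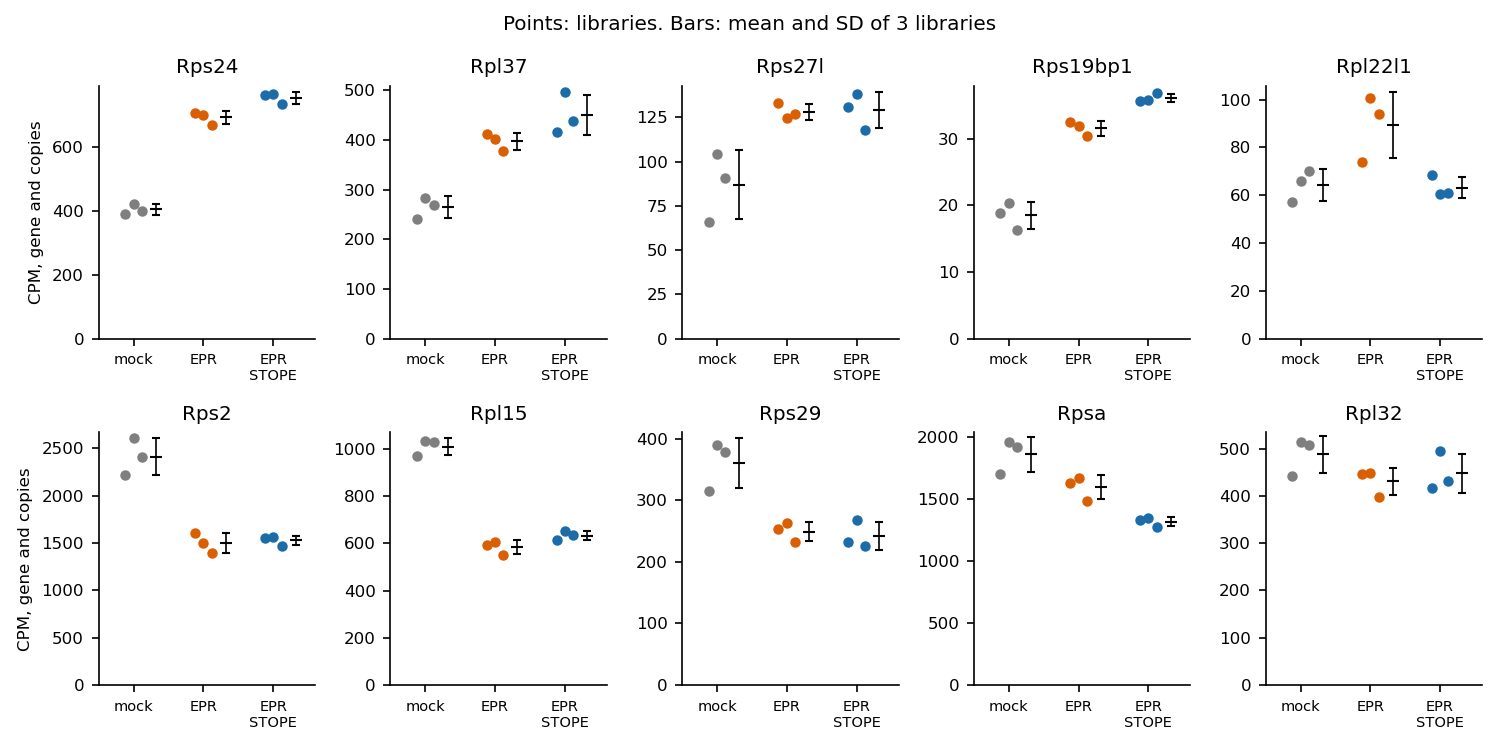
CPM of 10 ribosomal protein families, each gene with its copies, in each library, with bars for the mean and SD of 3 libraries per group. Rps24, Rpl37, Rps27l and Rps19bp1 lie higher in both overexpressing groups than in mock, Rps2, Rpl15 and Rps29 lower, Rpl22l1 is highest in EPR, and Rpl32 overlaps between groups.

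EPR and EPRSTOPE, which differ in whether the peptide can be made, were then compared directly. The RNA itself was at 23.7 to 27.0 CPM in EPR and 3.80 to 4.74 CPM in EPRSTOPE libraries, so the peptide, the level of the RNA and the pool cannot be told apart in this comparison. Among all genes 6.86% were called higher in EPR and 6.35% lower, 13.2% in all, and among the 86 ribosomal protein genes 1 and 1. At any fold change 4 were higher and 3 lower, beside 9.19%, 10.3% and together 19.5% of all genes. With copies summed 1 family was higher and none lower, beside 7.32%, 6.34% and together 13.7% of all features, and 22 of 82 families had an unadjusted p under 0.05, beside 6100 of all 15264 features. *Rpl22l1*, the paralog of *Rpl22*, had 54.5, 64.7 and 67.9 CPM in mock, 70.9, 97.9 and 84.2 CPM in EPR and 62.2, 58.3 and 57.3 CPM in EPRSTOPE libraries. All 3 EPR libraries lay above the other 6. Its log2 fold change against EPRSTOPE was 0.51 (standard error 0.11, adjusted p = 0.005), against mock 0.43 (standard error 0.11, adjusted p = 0.0073), and the family gave 0.50 against EPRSTOPE. The call ended without EPR 207 (0.39), EPR 208 (0.52), EPRSTOPE 210 (0.49) or EPRSTOPE 211 (0.48).

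*Rpl11*, which with *Rpl5* forms the 5S particle that binds MDM2, had 213, 251 and 167 CPM in EPR and 255, 385 and 332 CPM in EPRSTOPE libraries. Its log2 fold change was -0.63 (standard error 0.15, adjusted p = 0.0081). The groups lay apart by a small gap, between EPR 207 and EPRSTOPE 209. The copy *Gm10288* had 129, 112 and 126 CPM in EPR and 83.4, 0 and 4.8 CPM in EPRSTOPE libraries, and with copies summed the difference was -0.07 (adjusted p = 0.60). Its call as a gene ended when any 1 of 7 libraries was left out, all but EPR 207 and EPRSTOPE 209, at values of -0.63 to -0.47. *Rpl5* was at -0.08 and -0.47 against mock as a gene and at -0.01 and -0.00 as a family. *Rpl36al*, a paralog of *Rpl36a* on chromosome 12, was lower in EPR than in EPRSTOPE at -0.47 on the log2 scale (adjusted p = 0.00069), beside a neighbour median of -0.49, and *Rpl7l1* by -0.32 (adjusted p = 0.0041).

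The stalk proteins *Rplp0*, *Rplp1* and *Rplp2*, which recruit the GTPase factors, were not called in any comparison. *Rplp0* had 1174, 1336 and 1257 CPM in mock, 1603, 1574 and 1456 CPM in EPR and 1299, 1381 and 1289 CPM in EPRSTOPE libraries. The gene alone was higher in EPR than in mock, at 0.30 on the log2 scale (adjusted p = 0.00097), and its family gave -0.05. *Rps18*, *Rpl13* and *Rps7* were among the 5 highest or lowest values of the direct comparison without passing its test, at 0.45, -0.36 and -0.36. Against mock, EPRSTOPE gave -0.29 for the *Rplp0* family (adjusted p = 0.0006), -0.29 for *Rplp1* (adjusted p = 0.021) and -0.25 for *Rplp2* (adjusted p = 0.06). *Rpl32*, whose promoter served the study as a control, had 445, 518 and 513 CPM in mock, 441, 443 and 397 CPM in EPR and 417, 495 and 430 CPM in EPRSTOPE libraries. Its log2 fold changes were -0.21 (adjusted p = 0.053) and -0.14 (adjusted p = 0.18), and the EPRSTOPE libraries overlapped with mock.

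All ribosomal protein genes together took 3.55%, 3.98% and 3.89% of the estimated counts in mock, 3.56%, 3.51% and 3.35% in EPR and 3.25%, 3.63% and 3.08% in EPRSTOPE libraries. These shares overlapped between the groups. With copies added they were 4.70%, 5.19% and 5.09% in mock, 4.48%, 4.53% and 4.23% in EPR and 4.23%, 4.41% and 4.12% in EPRSTOPE libraries, and every mock library lay above the other 6. These are shares of the counts of a library, in which fewer ribosomal protein mRNAs and more of other RNAs cannot be told apart. A list of 18 abundant non-coding and mitochondrial RNAs summed to 63167 to 94485 CPM in mock, 113903 to 121400 CPM in EPR and 113068 to 125107 CPM in EPRSTOPE libraries, with no overlap with mock. Of the 18, 11 were called higher and 0 lower in EPR, and 3 higher and 1 lower in EPRSTOPE. The shares of all genes were 15.2% and 12.9% in EPR, and 15.6% and 12.4% in EPRSTOPE. The mitochondrial transcripts held 1.18% to 1.39% of counts in mock, 1.90% to 2.58% in EPR and 1.62% to 1.68% in EPRSTOPE, and ribosomal RNA 0.545% to 0.681%, 0.820% to 1.11% and 0.598% to 0.728%. The ribosomal RNA shares of EPRSTOPE overlapped with mock. The part of these RNAs in the shares of the ribosomal protein genes was not tested.

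**Figure D5:**
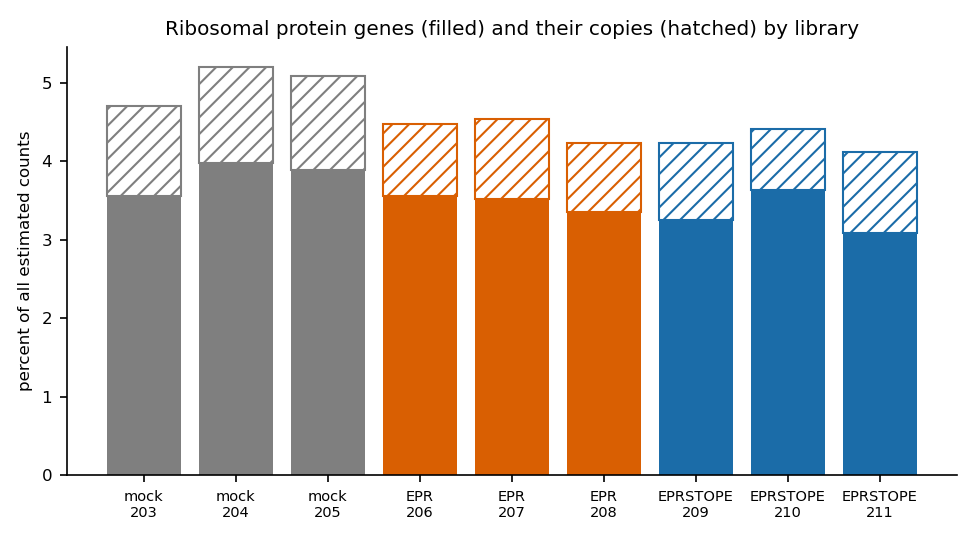
Percent of all estimated counts on the 92 ribosomal protein genes (filled) and on their near-identical copies (hatched) in each library. The filled parts overlap between the groups, and with copies the 3 mock libraries lie above the 6 others.

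The start windows of 5 called members or families are shown for their pyrimidine tracts. *Rps24* has another start in the table, with a run of 2. RefSeq starts, from the table on GRCm38.p6, were found for 67 of the 92 genes. Each window has 10 bases before and 20 from the start, 5′ to 3′ on the gene's strand in GRCm38.p6, with the longest run of C and T that reaches within 5 bases of the start in capitals.
Rps24, chr14:24490668-24490697, plus strand: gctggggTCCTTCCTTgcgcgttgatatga
Rpl15, chr14:18270967-18270996, minus strand: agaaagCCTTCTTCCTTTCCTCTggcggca
Rpl22l1, chr3:28805498-28805527, plus strand: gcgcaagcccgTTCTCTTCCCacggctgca
Rps2, chr17:24720053-24720082, plus strand: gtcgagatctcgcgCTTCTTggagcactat
Rps19bp1, chr15:80264287-80264316, minus strand: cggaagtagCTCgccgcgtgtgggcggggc

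The run had 9 bases in *Rps24*, 17 in *Rpl15*, 10 in *Rpl22l1*, 6 in *Rps2* and 3 in *Rps19bp1*. In windows not printed it had 3 in *Rpl37* and 9 and 4 near the starts of *Rps27l*. Runs of over 8 bases thus stood at starts of *Rps24*, which rose, of *Rpl22l1*, and of *Rpl15*, which fell. Short ones stood at *Rpl37* and *Rps19bp1*, which rose, and *Rps2*, which fell. In *Rps27l*, which rose, both runs lay wholly before the annotated starts and so outside the annotated mRNA. The RefSeq starts of *Rps2* and *Rps24* lie inside the gene spans given above. Whether the starts shown are those used in these cells was not tested. Over the 79 starts of members 30.4% had a run of at least 8 bases, against 9.38% of all 32851 starts in the table. In the 300 bases around the start, the letters CCGGAA on either strand, the core of ETS sites, occurred in 46.8% of the members' starts and 14.9% of all, AAGATGGC on either strand, the core of YY1 sites, in 10.1% and 2.75%, and TATAAA on the gene's strand in 7.59% and 8.32%. A match is a description of the letters alone.

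Other genes of translation were read from lists chosen with results of these data known. The 78 mitochondrial ribosomal proteins, a separate family for the mitochondrial ribosome, had 4 called higher and 4 lower in EPR and 4 and 6 in EPRSTOPE against mock, beside 15.2% and 12.9%, and 15.6% and 12.4%, of all genes, with medians of -0.14 and -0.08. The largest rises were those of *Mrps6* in EPR (0.71) and *Mrpl23* in EPRSTOPE (1.73), and the lowest values those of *Mrpl42* in EPR (-0.81) and *Mrpl21* in EPRSTOPE (-0.71). Among the 37 translation factors 3 were higher and none lower in EPR, and 4 were higher and 1 lower in EPRSTOPE, beside the same shares of all genes. *Tpt1*, on chromosome 14 and itself a carrier of a pyrimidine tract, led them with log2 fold changes of 1.22 and 1.51, followed by the initiation factor subunits *Eif3f* in EPR (0.51) and *Eif3d* in EPRSTOPE (0.61). *Eif3a* was lower in EPRSTOPE (-0.58), and higher in EPR than in EPRSTOPE (0.62), as was *Eif4a2* (0.58), while *Eef2k* was lower (-0.51).

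Of 55 tested genes of ribosome biogenesis none was called higher and 10 were called lower in EPR against mock, with a median of -0.34, beside 15.2% and 12.9% of all genes. *Tcof1*, which serves RNA polymerase I transcription, had the lowest value, -1.23, and *Pno1*, an assembly factor of the small subunit, -0.68. In EPRSTOPE 1 was higher, *Bop1* on chromosome 15 (0.64), and 5 were lower, led by *Rrp12* (-0.96) and *Taf1d* (-0.81). The median was -0.11, and 15.6% and 12.4% of all genes were called higher and lower there. In the direct comparison *Rrp12* was higher in EPR (0.53), and *Rrp9* (-0.65) and *Tcof1* (-0.52) were lower, beside 6.86% and 6.35% of all genes.

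Among 23 tested S6 kinases and mTOR-linked regulators 4 were higher and 3 lower in EPR, and 3 and 3 in EPRSTOPE, beside 15.2% and 12.9%, and 15.6% and 12.4%, of all genes. *Rps6ka1*, a ribosomal S6 kinase, had log2 fold changes of 2.16 and 1.77 and the MYC antagonist *Mxd4* of 2.23 and 1.99. The kinase *Rps6ka3* was lower in EPR (-0.76) and *Rps6kb2* in EPRSTOPE (-0.97). *Eif4ebp2*, a repressor of cap-dependent translation, was lower in both (-0.72 and -0.65), and *Mxi1* in EPRSTOPE (-0.79). *Fau* and *Rack1*, which also belong to the ribosome but do not match the naming rule, were not called. *Rack1* gave 0.01 in EPR and 0.00 in EPRSTOPE, and *Fau*, with 156, 145 and 400 CPM in mock 203, 204 and 205, gave 0.02 and -1.20.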

How the data were processed

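Total RNA of 9 NMuMG libraries was sequenced by the authors as stranded 75-base read pairs on a NextSeq, per the labels, whereas the methods name a HiSeq and a longer run. The authors quantified it with Kallisto 0.43.1 on Gencode vM15 transcripts. They deposited, for each transcript, its estimated counts, not normalized. The authors also deposited TPM, which Kallisto scales by effective length. The deposited effective lengths of long transcripts were shorter than the transcripts by 412 to 474 bases in mock, 181 to 283 in EPR and 116 to 387 in EPRSTOPE libraries, so TPM of short mRNAs are not comparable between libraries. They served to rank genes and, with this limit, in the alternatives that use TPM. Copies were found in Gencode M21, not in vM15.

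Estimated counts were summed per gene symbol and rounded. The 15370 genes that reached 1 CPM in 3 or more libraries entered edgeR 4.0.16 (quasi-likelihood test, TMM, 1 factor of 3 levels, all 9 libraries, Benjamini-Hochberg adjustment over all genes). CPM values are TMM-normalized. On simulated counts for EPR against mock over 15370 genes, edgeR called 47 of 100 genes changed by a log2 fold change of 0.75 and 92 of 100 changed by 1.5, with 0 false calls. The simulation gave every gene the same spread, changed only those genes and shared no reads between copies, unlike these data. Its rates therefore do not measure errors among the ribosomal protein genes. Copies were aligned with BLAST 2.17.0. Start sequences came from the RefSeq table.

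The members and lists were chosen with earlier results of these data known. Named by rule were *Rpl32*, the stalk, 5S-particle and paralog members, *Rps19bp1*, the 5 highest and 5 lowest log2 fold changes in each comparison, the 5 highest and lowest mean TPM, members called in the direct comparison, and the 2 largest called rises and falls of each other list. *Rps24*, *Rpl37rt*, *Rpl8*, *Rpl30*, *Rps3a2*, *Rps3a3*, *Rpl6l*, the copies, *Krt8* and *Krt18* were named after their values were seen. Alternatives were DESeq2 1.42.0, limma 3.58.1 with voom, other scalings, filters, thresholds and counts, and leaving out each library. The sum over copies and the medians of neighbours and chromosomes were added after seeing the data.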

Additional observations from a re-analysis of the deposited data

Results flagged for a closer look

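When EPR libraries were set against EPRSTOPE libraries, 2 ribosomal protein genes passed both the adjusted p and the fold change limit. At an adjusted p under 0.01 with any fold change, 4 were higher and 3 lower in EPR (edgeR), these 2 among them. Whether such differences come from the peptide, the level of the RNA or the pool cannot be told. *Rpl22l1* was higher in EPR than in EPRSTOPE by 0.51 on the log2 scale (adjusted p = 0.005, edgeR), and all 3 EPR libraries lay above the other 6. Its call held with copies summed (0.50), and it was lost with limma and voom (0.49), with counts scaled from TPM and length (0.31, adjusted p = 0.44) and without EPR 207 (0.39), EPR 208 (0.52), EPRSTOPE 210 (0.49) or EPRSTOPE 211 (0.48). *Rpl11* was lower in EPR, at -0.63 on the log2 scale (adjusted p = 0.0081, edgeR), in 3 of 3 libraries, and at -0.07 with copies summed. Its call was lost without any 1 of 7 libraries, all but EPR 207 and EPRSTOPE 209, at values of -0.63 to -0.47.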

How the results depend on the processing

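The number of ribosomal protein genes called depended on how low counts, copies and the fold change limit were treated, and the cause was not tested unless the setting itself gives it. Shares of all genes called are given above with copies summed and with no fold minimum. For the other settings of this section they were not counted, so a shift in calls over all genes cannot be told apart. In EPR against mock, 7 genes were called higher, 11 without a filter on low counts, 4 with copies summed, 1 beyond a log2 fold change of 1, 11 with no fold minimum and 5 to 8 with 1 library left out. The 4 called lower became 2 with counts scaled from TPM and length, 1 beyond a log2 fold change of 1, 9 with no fold minimum and 2 (without EPR 208) to 5 with 1 library left out. In EPRSTOPE against mock, the 8 called higher became 4 with copies summed, 0 beyond 1 and 6 to 8 with 1 library left out. The 4 called lower became 9 with library totals in place of TMM, 9 without the filter, 0 beyond 1, 7 with no fold minimum, and 3 to 10 with 1 library left out, where 10 came without EPRSTOPE 210.

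In EPR against EPRSTOPE, the 1 called higher became 0 with limma and voom, 3 without the filter, 2 with at least 10 counts in every library, 0 with counts scaled from TPM and length, 2 on protein-coding transcripts, 2 at an adjusted p of 0.05, 0 beyond 1, 4 with no fold minimum and 0 to 2 with 1 library left out. Without EPR 206 there were 2, and none without EPR 207, EPR 208 or EPRSTOPE 211. The 1 called lower became 0 with counts scaled from TPM and length, on protein-coding transcripts, with copies summed, in a fit of only these groups and beyond 1, 3 with no fold minimum, and 0 to 2 with 1 library left out, with 2 without EPRSTOPE 209. By edgeR, 19 of the 86 genes had an unadjusted p under 0.05 in this comparison, beside 39.8% of all genes.

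The share of counts was lower than in mock by -0.33 percentage points in EPR and -0.49 in EPRSTOPE. It was -1.28 and -1.42 as a share of TPM, whose effective lengths differ between libraries, and -0.58 in EPR with copies added, and -0.46 to -0.25 in EPR and -0.65 to -0.37 in EPRSTOPE with 1 library left out. Directions turned for *Rpl35a*, with copies summed, to -0.12 in EPR and -0.18 in EPRSTOPE and, with pseudogene counts added, to -0.047 in EPRSTOPE, and for *Rpsa* in EPRSTOPE on protein-coding transcripts, to 0.020. *Rpl36a* lost its call in EPR without mock 204 or EPR 208 (-0.61 each), and *Rps16* in EPRSTOPE without mock 203 (-0.65), EPRSTOPE 209 (-0.69) or EPRSTOPE 211 (-0.66). *Rps2*, *Rps24* and *Rps19bp1* kept direction and call against mock in every alternative fit run at the same thresholds. Counts under 0.253 to 0.502 CPM cannot be told from 0. No paired analysis was possible because the libraries carry 9 different numbers, which the groups do not share.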
